A study of Mus musculus with 8 samples.

Results

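The cell division genes described here are 48 genes of DNA replication and mitosis, chosen by name from the 24980 gene symbols of the deposited count table. They form 2 classes, 26 S-phase genes, which prepare for and carry out DNA synthesis, and 22 mitotic genes, which act from late S phase to cytokinesis. All 48 genes passed the filter on low counts that left 17582 genes for testing.

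The study compared skeletal myogenic progenitors of 2 origins, taken fresh or after expansion in culture, in 4 groups with 2 libraries each. Teratoma-derived cells came from EGFP-labelled mouse embryonic stem cells of the E14 line that had formed teratomas in irradiated, cardiotoxin-injured tibialis anterior muscle of NSG-mdx4Cv mice. These hosts are immunodeficient and lack dystrophin, and the cells were sorted as EGFP+, CD31-, CD45-, α7-integrin+ and VCAM-1+. They were sequenced freshly isolated (TF) or expanded to passage 8 (TE), and endogenous satellite cells, the resident stem cells of adult muscle, were sequenced freshly isolated (SF) or expanded to passage 8 (SE). Both kinds of expanded cells had been kept in the same culture conditions, so TE and SE share the medium and the passage number. The teratoma groups rest on a single stem cell line, and the age and strain of the satellite cell donors are not given in the sources used here. The labels call the 2 libraries of a group biological replicates without saying whether each came from its own animal or culture, so p-values measure only the spread between these libraries.

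S phase opens when origins of replication that were loaded with the MCM helicase fire, under the control of cyclin E and of the E2F transcription factors. Mitosis follows once the kinase Cdk1 with its cyclins is active, and the chromosomes are then condensed, attached to the spindle and parted. Mitotic RNAs are made late in the cycle and are nearly absent from resting cells, whereas several replication genes also serve DNA repair and nucleotide supply in cells that do not divide. Satellite cells of uninjured adult muscle are quiescent, and they enter the cycle when muscle is injured or when they are plated.

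Promoters of both classes are shown first because the classes differed in the letters found there. Windows from 250 bases before to 50 bases after the start of transcription were taken from RefSeq on GRCm38.p6, and 39 of the 48 genes matched, with 41 promoters. Capitals mark, on either strand, an E2F-type element (TTTNNCGC), a cell cycle homology region (CHR, TTTGAA) or a CCAAT box (CCAAT), and matches of different motifs overlapped at 1 position. The gene for the helicase subunit Mcm6 (chr1:128331590-128359664, minus strand, GRCm38) has the promoter chr1:128359656-128359955 with 3 E2F-type matches, of which 2 overlap on opposite strands. The gene for the transcription factor E2f2 (chr4:136172394-136196057, plus strand) has 2 E2F-type matches in the promoter chr4:136172024-136172323. This window follows the RefSeq start and ends before the gene start printed here, which is from GENCODE. The other promoter of E2f2, chr4:136180532-136180831, is not printed and has 0 E2F-type matches, 1 CHR match and 3 CCAAT boxes. The gene for the proliferation marker Mki67 (chr7:135689784-135716361, minus strand) has 2 CHR matches in chr7:135716330-135716629. The gene for the kinase Cdk1 (chr10:69335146-69352938, minus strand) holds all 3 motifs in chr10:69352863-69353162, and the gene for the passenger protein Birc5 (chr11:117849251-117855743, plus strand) holds none of them in chr11:117848987-117849286. The windows, each printed 5′ to 3′ on the strand of its gene, read as follows.
Mcm6: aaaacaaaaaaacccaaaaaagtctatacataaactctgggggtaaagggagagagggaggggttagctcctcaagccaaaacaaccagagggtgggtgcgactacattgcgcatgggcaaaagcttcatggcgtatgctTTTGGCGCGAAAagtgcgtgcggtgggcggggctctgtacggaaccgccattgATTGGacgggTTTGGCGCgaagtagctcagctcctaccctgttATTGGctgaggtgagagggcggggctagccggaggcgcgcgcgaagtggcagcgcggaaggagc
E2f2: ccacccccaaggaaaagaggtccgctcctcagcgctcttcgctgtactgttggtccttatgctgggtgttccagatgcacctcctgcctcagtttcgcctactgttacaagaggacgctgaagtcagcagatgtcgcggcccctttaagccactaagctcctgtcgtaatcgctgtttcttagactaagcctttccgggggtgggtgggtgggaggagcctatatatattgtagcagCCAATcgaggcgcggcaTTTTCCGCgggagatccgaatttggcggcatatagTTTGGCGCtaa
Mki67: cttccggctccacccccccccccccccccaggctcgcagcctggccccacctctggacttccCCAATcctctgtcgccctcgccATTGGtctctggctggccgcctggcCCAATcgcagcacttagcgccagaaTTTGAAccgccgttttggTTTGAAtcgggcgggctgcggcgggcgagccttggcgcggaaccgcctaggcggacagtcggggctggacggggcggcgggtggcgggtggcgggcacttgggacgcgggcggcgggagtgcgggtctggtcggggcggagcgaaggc
Cdk1: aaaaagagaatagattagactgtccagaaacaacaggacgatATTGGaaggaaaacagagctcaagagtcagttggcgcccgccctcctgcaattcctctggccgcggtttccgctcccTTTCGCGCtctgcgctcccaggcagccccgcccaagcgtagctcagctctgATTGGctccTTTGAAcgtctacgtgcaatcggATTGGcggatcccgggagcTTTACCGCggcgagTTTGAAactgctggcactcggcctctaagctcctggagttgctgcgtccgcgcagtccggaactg
Birc5: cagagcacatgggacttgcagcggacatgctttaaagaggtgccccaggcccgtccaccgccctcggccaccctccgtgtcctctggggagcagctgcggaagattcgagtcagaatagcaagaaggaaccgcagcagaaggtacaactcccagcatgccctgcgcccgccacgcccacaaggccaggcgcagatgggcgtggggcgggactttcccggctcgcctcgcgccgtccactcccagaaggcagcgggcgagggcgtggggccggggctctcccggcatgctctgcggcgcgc

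E2F-type elements were found in 10 of the 23 S-phase promoters (43.5%) and in 1 of the 18 mitotic promoters (5.56%), that of Cdk1, against 5.17% of all 32851 promoters in the table. CHR letters stood in 4 S-phase promoters (17.4%) and 13 mitotic promoters (72.2%), against 17.9% of all. A CCAAT box was present in 16 S-phase promoters (69.6%) and 16 mitotic promoters (88.9%), against 37.4% of all. Among the mitotic promoters, that of Nusap1, like that of Birc5, held none of the 3 motifs, and those of Bub1, Ccnb1 and Cenpe held no CHR letters. All of these genes except Birc5 were called higher in SE than in SF. These matches describe the letters of a window and do not show that a factor bound there. Their relation to the levels below was not tested.

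Depth ran from 11930881 to 21146554 estimated counts per library. The myogenic markers Pax7, Myf5, Myod1, Itga7, Des, Cdh15 and Vcam1 were detected in all 8 libraries. With expansion of either origin, the group means of Pax7, Myf5 and Vcam1 fell, and those of Myod1, Itga7, Des and Cdh15 rose. Markers of other cells moved with the groups. Levels are CPM, counts scaled to a common library total after trimmed mean of M-values (TMM) correction of that total. The summed level of 6 fibro-adipogenic markers was 15246 and 15459 CPM in TF and 1884 and 3404 CPM in SF, against 9.60 to 512 CPM in the expanded libraries. Col1a1 alone made up 13562 and 13820 CPM of the TF sums and 1004 and 1921 CPM of the SF sums. The summed level of 6 endothelial markers was 69.6 to 355 CPM in the fresh libraries and at most 2.22 CPM in the expanded ones, where 3 to 5 of the 6 were at 0. The summed level of 6 haematopoietic markers was 415 CPM in TF replicate 1, 34.2 CPM in TF replicate 2, 29.1 and 28.2 CPM in SF, and at most 6.57 CPM in the expanded libraries. The 10 muscle differentiation genes summed to 66.0 to 107 CPM in SF, 725 to 1374 CPM in TF, 10836 and 11436 CPM in TE, and 8429 and 18904 CPM in SE. The part of these markers' cells in the results below was not tested. In bulk samples fewer cells of a type and less RNA per cell cannot be told apart.

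The 2 SE libraries stood apart from each other and are given separately throughout. Levels below are CPM on the same TMM scale, given as replicate 1 then replicate 2. Relative level means the level of a gene in a library divided by its mean over the 8 libraries, which puts genes of different length on 1 scale. A change was called when the adjusted p of edgeR's quasi-likelihood test was below 0.05 and the fold passed the study's minimum.

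Mitotic genes were lowest in fresh satellite cells and highest in expanded satellite cells. Their median relative level was 0.108 and 0.0522 in SF, 0.823 and 0.795 in TF, 1.27 and 1.22 in TE, and 2.52 and 1.20 in SE. The order of the group means SE, TE, TF, SF held for 20 of the 22 genes. SF was lowest for 21 of them, Birc5 excepted, and SE was highest for all 22. The SE mean was carried by replicate 1, since replicate 2 lay beside the TE libraries.

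S-phase genes followed a flatter version of this order. Their median relative level was 0.385 and 0.256 in SF, 0.920 and 0.991 in TF, 1.07 and 1.11 in TE, and 1.78 and 0.975 in SE. SF was lowest for 23 of the 26 genes, and SE was highest for 16, TE for 6, TF for 2 and SF for 2. The order SE, TE, TF, SF held for 10 of them. The median SF level was 21.6% of the SE level for S-phase genes and 4.25% for mitotic genes. Against TF it was 39.9% and 10.5%, and against TE 30.8% and 6.87%.

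**Figure D1:**
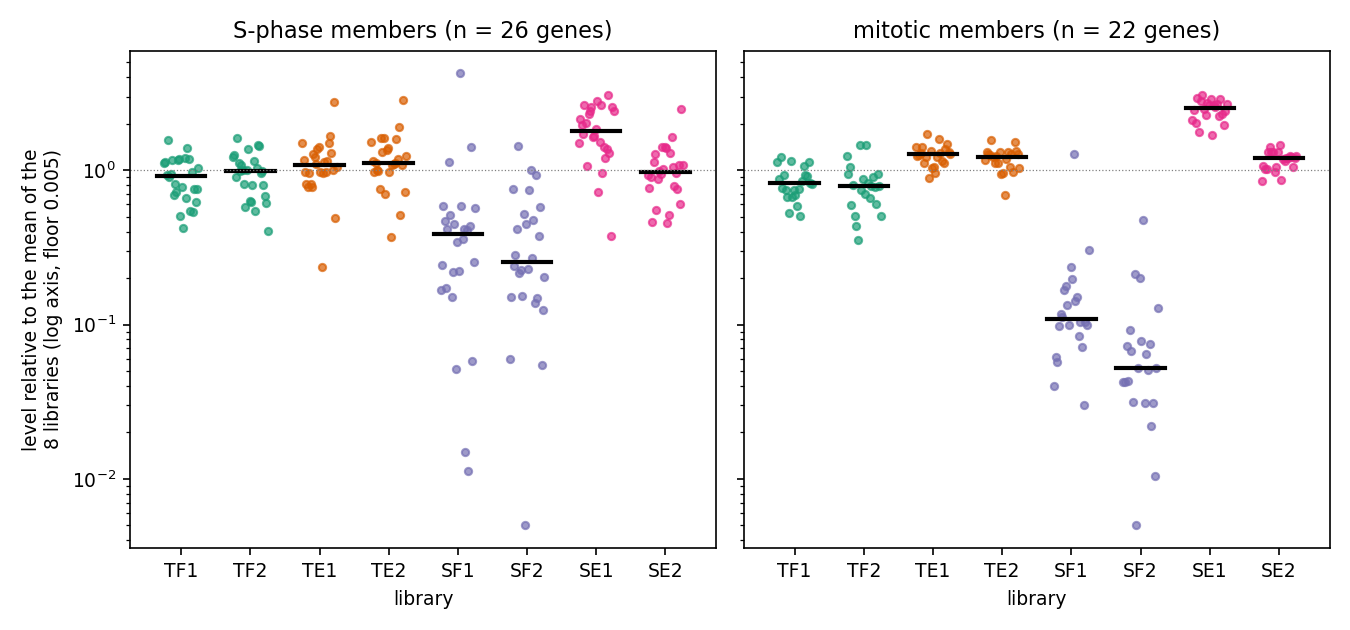
Relative level (level in a library divided by the mean of the 8 libraries, log axis, values under 0.005 drawn at 0.005) of 26 S-phase genes and 22 mitotic genes in each library, 1 point per gene, with the class median as a bar. The mitotic medians fall to 0.108 and 0.0522 in SF and reach 2.52 in SE replicate 1, and the S-phase medians range less widely, from 0.256 to 1.78.

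Expansion of satellite cells raised 20 S-phase genes and 21 mitotic genes, and lowered 1 S-phase gene. Over all tested genes, 20.9% were called higher and 19.8% lower in SE than in SF. Both SE libraries lay above both SF libraries for 20 S-phase and 21 mitotic genes, beside 33.9% of all tested genes. The median log2 fold change was 2.21 for S-phase genes and 4.56 for mitotic genes, beside -0.23 over all tested genes. With median-ratio size factors the median of all genes moved to -0.43, and the class medians to 2.02 and 4.37. Estimated counts in SF were small, with a median of 106.5 and 90 counts per S-phase gene and 44.5 and 34 per mitotic gene.

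Kif23, Kif20a, Mki67 and Top2a had the largest changes among the mitotic genes. Mki67, the proliferation antigen that coats mitotic chromosomes, was at 13.1 and 13.9 CPM in SF and at 692 and 278 CPM in SE, with TF at 375 and 410.2 CPM and TE at 467 and 386 CPM. All libraries of the other groups lay far above both SF libraries, and the log2 fold change from SF to SE was 5.17 (standard error, s.e., 0.42, adjusted p = 1.98e-05). Top2a, which untangles sister chromatids, stood at 11.4 and 7.87 CPM in SF, 164 and 177 CPM in TF, 231 and 243 CPM in TE, and 454 and 199 CPM in SE. Its log2 fold change from SF to SE was 5.08 (s.e. 0.40, adjusted p = 1.79e-05). Again no SF library came near another group, while SE replicate 2 fell between TF and TE.

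Kif23, the kinesin of the central spindle, had the largest change of the 48 genes, at a log2 fold change of 5.84 (s.e. 0.41, adjusted p = 9.06e-06). Its levels were 1.31 and 1.35 CPM in SF, 39.6 and 26.1 CPM in TF, 59.1 and 65.5 CPM in TE, and 100.2 and 53.1 CPM in SE. Kif20a, another kinesin of cytokinesis, rose by 5.47 (s.e. 0.57, adjusted p = 7.76e-05), from 2.62 and 0.81 CPM to 106 and 45.6 CPM. Of the exonic bases of Kif20a, 29.3% overlap Cdc23 on the opposite strand, and the strand setting of the counting is not given in the sources used here. Kif11, the motor that pushes the spindle poles apart, rose by 4.26 (s.e. 0.36), Tpx2, a spindle assembly factor, by 4.58 (s.e. 0.41), and Nusap1, which bundles spindle microtubules, by 4.72 (s.e. 0.74). Nusap1 had only 28 and 3 counts in SF.

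The kinases and cyclins that drive mitosis rose together. Cdk1, whose promoter is printed above, was at 2.91 and 1.75 CPM in SF, 19.3 and 13.2 CPM in TF, 28.9 and 31.7 CPM in TE, and 73.0 and 36.9 CPM in SE. The groups kept that order without overlap, and the log2 fold change from SF to SE was 4.56 (s.e. 0.45, adjusted p = 5.53e-05). Its partners Ccna2, Ccnb1 and Ccnb2, the A-type and B-type cyclins, rose by 4.55, 4.82 and 3.87. The polo kinase gene Plk1 rose by 4.47 and Aurka, the kinase of the spindle poles, by 3.27. Aurkb, the kinase of the chromosomal passenger complex, rose by 4.61 (s.e. 1.04), from 23 and 0 counts in SF, so its size rests on very few reads.

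Kinetochore and checkpoint genes rose as well. Cenpf, a protein of the outer kinetochore, had 10.1 and 6.12 CPM in SF and 325 and 144 CPM in SE, a log2 fold change of 4.85 (s.e. 0.42, adjusted p = 2.78e-05). Cenpe, a kinetochore motor, rose by 4.11 and Cenpa, the histone variant of centromeres, by 4.48. The checkpoint kinase genes Bub1 and Bub1b rose by 4.63 and 3.18. Cdc20, the activator of the anaphase-promoting complex, rose by 3.99. Ube2c, the ubiquitin-conjugating enzyme of that complex, rose by 3.19 (s.e. 0.52), and 22.8% of its exonic bases overlap the muscle troponin gene Tnnc2 on the opposite strand.

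Birc5 was the only mitotic gene not called between SE and SF. It was at 16.7 and 41.6 CPM in TF, 27.0 and 19.7 CPM in TE, 36.3 and 13.5 CPM in SF, and 47.7 and 24.4 CPM in SE. The libraries of a group lay as far apart as the groups, every pair of groups overlapped, and the log2 fold change from SF to SE was 0.54 (s.e. 0.55, adjusted p = 0.445). Aurkb, which acts in the same complex, was at 1.67 and 0 CPM in SF, 14.2 and 18.3 CPM in TF, 11.0 and 13.8 CPM in TE, and 28.5 and 12.1 CPM in SE. Unlike Birc5, it showed no overlap between SF and any other group.

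The S-phase genes are given by role. Nearly all genes of origin licensing and of the helicase rose. Mcm2 was at 9.67 and 3.43 CPM in SF, 64.0 and 70.4 CPM in TF, 86.0 and 88.1 CPM in TE, and 86.3 and 53.7 CPM in SE, with a log2 fold change from SF to SE of 3.42 (s.e. 0.43, adjusted p = 0.000228). Mcm6 was at 9.59 and 15.7 CPM in SF, 50.7 and 62.0 CPM in TF, 43.6 and 56.0 CPM in TE, and 147 and 63.2 CPM in SE, a change of 3.05 (s.e. 0.41, adjusted p = 0.000352). SF lay below every other library for both, and Mcm3 and Mcm7 followed with changes of 2.89 and 1.97.

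Mcm4 and Mcm5 were held up by SE replicate 1. Mcm4 stood at 34.6 and 44.7 CPM in SF, 55.5 and 53.6 CPM in TF, 57.8 and 58.0 CPM in TE, and 117 and 53.7 CPM in SE. SF thus kept 46.3% of the SE mean, far more than for Mcm2 (9.35%) or Mcm6 (12.04%), although all are subunits of a single ring. Mcm4 changed by 1.11 (s.e. 0.32, adjusted p = 0.0217), and without SE replicate 1 by 0.46 (adjusted p = 0.225). Mcm5 changed by 1.62 (s.e. 0.55, adjusted p = 0.0405), and by 0.40 without that library (adjusted p = 0.496).

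The licensing factors Cdt1 and Cdc6 rose by 3.18 and 2.14, and Cdc45, which joins the helicase at firing, by 3.24. Without SE replicate 1 the change of Cdc6 was 1.30 (adjusted p = 0.217). Gins2, a subunit of the GINS complex of the active helicase, had the largest S-phase change at 5.67 (s.e. 0.95, adjusted p = 0.00124), from 5 and 0 counts in SF. Of its exonic bases, 67.3% overlap Gse1 on the opposite strand. Its partner Gins1 was at 1.45 and 1.68 CPM in SF and 5.37 and 4.57 CPM in SE, and its log2 fold change of 1.66 (s.e. 0.78, adjusted p = 0.112) was not called although the 2 groups did not overlap.

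Polymerase and clamp genes were split. Pole, the catalytic subunit of the leading-strand polymerase, rose by 2.64 (s.e. 0.37, adjusted p = 0.000414). Prim1, the primase, rose by 1.53 (s.e. 0.53, adjusted p = 0.0435), but the call was lost under 10 of 14 alternatives, among them median-ratio size factors (adjusted p = 0.0709), the replicate block (0.0644) and no filter (0.0702), and its change was 1.10 without SE replicate 2 (adjusted p = 0.268). Pola1, which extends the primer, was at 19.1 and 32.6 CPM in SF and 49.3 and 16.7 CPM in SE, the SE libraries lying outside the SF pair on either side. Its log2 fold change was 0.35 (s.e. 0.45, adjusted p = 0.542), or -0.62 without SE replicate 1 and 0.94 without SE replicate 2. Rfc3 of the clamp loader rose by 3.98 (s.e. 0.76, adjusted p = 0.00259), from 2 and 20 counts in SF, and Rfc4 of the same complex, at 0.57 (s.e. 0.63, adjusted p = 0.485), was not called.

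Pcna, the sliding clamp, and Tyms, which makes thymidylate, had their highest group mean in fresh satellite cells. Pcna stood at 79.6 and 101 CPM in SF, 82.5 and 75.6 CPM in TF, 56.9 and 53.3 CPM in TE, and 75.01 and 39.0 CPM in SE. Its log2 fold change from SF to SE was -0.66 (s.e. 0.29, adjusted p = 0.0898), and it was called lower with median-ratio size factors (-0.85, adjusted p = 0.0405) and without SE replicate 1 (-1.19, adjusted p = 0.00264). Tyms was at 233 and 41.1 CPM in SF, 23.0 and 44.0 CPM in TF, 13.0 and 20.3 CPM in TE, and 39.6 and 24.98 CPM in SE. It was called lower, at -2.08 (s.e. 0.67, adjusted p = 0.032), but the size rested on SF replicate 1, without which the change was -0.34. Without SE replicate 2 the change was -1.77, and the call was lost in a fit of only the groups compared (adjusted p = 0.0667). The subunits of ribonucleotide reductase, which makes deoxynucleotides, both rose, Rrm2 by 3.21 (s.e. 0.33) and Rrm1 by 2.03 (s.e. 0.23).

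**Figure D2:**
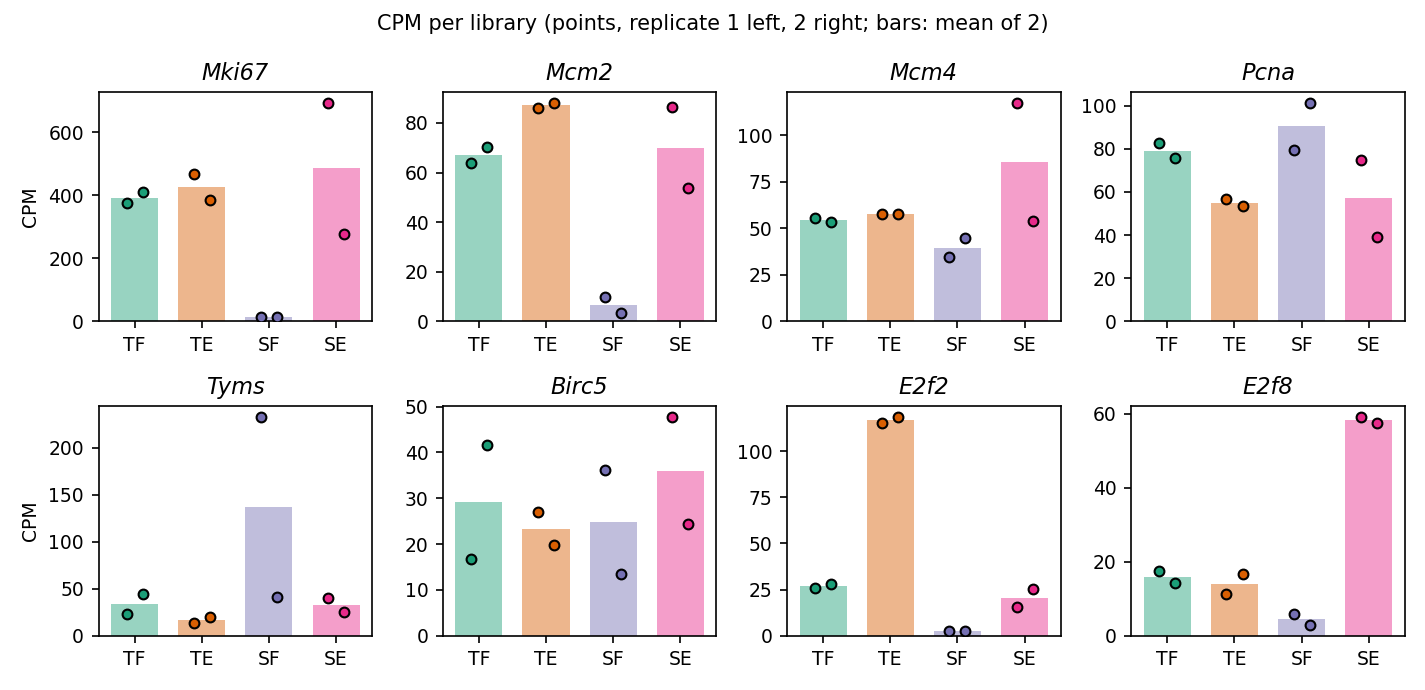
CPM of 8 of the genes in each group, with points for the libraries (replicate 1 left, replicate 2 right) and bars for the mean of 2. Mki67 and Mcm2 are lowest in SF. Pcna and Tyms have their highest group mean there (90.4 and 137 CPM), but for both the lower SF library lies below the higher TF library. Birc5 overlaps between groups, and E2f2 reaches 118 CPM in TE and E2f8 59.1 CPM in SE.

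Regulators of entry into S phase included the genes that set the expanded groups apart. Ccne1, a cyclin that partners Cdk2, was at 0.36 and 4.78 CPM in SF, 31.5 and 30.9 CPM in TF, 53.7 and 61.9 CPM in TE, and 44.0 and 31.2 CPM in SE, and rose from SF to SE by 3.85 (s.e. 0.73, adjusted p = 0.00239). Its relative Ccne2 rose by 2.24 (s.e. 0.73, adjusted p = 0.0333), with 30.4 CPM in SE replicate 1 but 7.43 CPM in replicate 2, and by 0.92 without SE replicate 1 (adjusted p = 0.405). The checkpoint kinase gene Chek1 rose by 2.18 (s.e. 0.76, adjusted p = 0.0437), and by 1.52 without SE replicate 1 (adjusted p = 0.251). E2f1, an activator of S-phase genes, was at 12.9 and 13.7 CPM in TF, 17.1 and 18.4 CPM in TE, 24.0 and 9.83 CPM in SF, and 21.9 and 18.3 CPM in SE. It was not called, at 0.25 (s.e. 0.41, adjusted p = 0.64), and the SE libraries lay between those of SF.

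E2f2, another activator, was highest in expanded teratoma-derived cells. It was at 26.1 and 28.2 CPM in TF, 115 and 118 CPM in TE, 2.40 and 2.29 CPM in SF, and 15.5 and 25.04 CPM in SE. No groups overlapped, and TE exceeded SE by a log2 fold change of 2.53 (s.e. 0.26, adjusted p = 0.000665) and TF by 2.11 (s.e. 0.26, adjusted p = 0.000341). E2f8, an atypical E2F that represses, was highest in expanded satellite cells, at 59.1 and 57.5 CPM in SE against 17.4 and 14.2 CPM in TF, 11.4 and 16.7 CPM in TE, and 5.89 and 2.89 CPM in SF. The 2 SE libraries lay close to each other for it. TE was lower than SE by -2.05 (s.e. 0.37, adjusted p = 0.00963), and by -1.79 without TE replicate 1 (adjusted p = 0.0696). Of the exonic bases of E2f8, 11.2% overlap the noncoding Gm2788 on the opposite strand. Opposite-strand overlaps were larger for Ccne2 (17.4%, Ints8), Rfc4 (12.7%, Eif4a2) and Ccna2 (12.5%, Exosc9).

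In the fit over all groups, few of the genes passed the thresholds with expansion of teratoma-derived cells. In TE against TF, 2 S-phase genes, Rrm1 and E2f2, and 2 mitotic genes, Aurka and Cenpe, were called higher and none lower, beside 9.86% of all tested genes called higher and 16.2% lower. These counts amount to 7.69% and 9.09% of the classes, below the share called higher over all genes, but they depended on the fit. In a fit of only these 2 groups 7 S-phase and 11 mitotic genes were called, and 5 and 7 without the filter on low counts. The share of all tested genes called was not computed for those fits, so these counts cannot be set against it. Rrm1 went from 50.3 and 63.3 CPM to 141 and 139 CPM, a log2 fold change of 1.30 (s.e. 0.22, adjusted p = 0.00231). Aurka went from 7.99 and 5.34 CPM to 25.9 and 18.6 CPM, a change of 1.74 (s.e. 0.42, adjusted p = 0.0146), and its call was lost without TF replicate 2 or TE replicate 1 (1.51 in either case, adjusted p = 0.0773 and 0.09). Cenpe went from 37.8 and 50.1 CPM to 121 and 98.6 CPM, a change of 1.32 (s.e. 0.42, adjusted p = 0.0463) that missed the threshold when any of these 4 libraries was left out (1.15 to 1.57, adjusted p from 0.0507 to 0.15).

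Called or not, most mitotic genes had a higher mean in TE. The log2 difference between TE and TF was positive for 20 of the 22 mitotic genes, Aurkb and Birc5 excepted, with a median of 0.57 and a range from -0.39 to 1.74, and for 17 of the 26 S-phase genes, with a median of 0.17 and a range from -1.01 to 2.11. The median over all tested genes was -0.18. Both TE libraries lay above both TF libraries for 19 mitotic genes and 11 S-phase genes, a separation found for 31.8% of all tested genes. TF libraries both lay above TE for 1 mitotic and 4 S-phase genes, Mcm5 among the latter (42.3 and 43.8 CPM against 22.04 and 30.0 CPM), beside 37.7% of all tested genes. Most of these differences did not pass the test for a single gene. By edgeR's quasi-likelihood test, 3 of 26 S-phase and 5 of 22 mitotic genes had an unadjusted p below 0.05. Over all genes this was 6866 of 17582, a larger share than in either class.

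Fresh cells of the 2 origins differed widely. In TF against SF, 13 S-phase genes and 20 mitotic genes were called higher and none lower, beside 15.1% of all tested genes called higher and 9.13% lower. The median log2 fold change was 1.33 for S-phase genes and 3.25 for mitotic genes, beside 0.08 over all tested genes. Kif23 was higher in TF by 4.62 (s.e. 0.40, adjusted p = 0.000147), Mki67 by 4.86 (s.e. 0.41, adjusted p = 0.000143) and Gins2 by 5.61 (s.e. 0.95, adjusted p = 0.003). Cdk1 was higher by 2.80, Mcm2 by 3.36 and E2f2 by 3.53. Both TF libraries lay above both SF libraries for 21 mitotic and 21 S-phase genes, beside 35.5% of all tested genes, and both TE libraries did so for 21 and 22 genes, beside 36.2%. The mitotic genes not called were Birc5 and Aurka, and the S-phase genes not called included Mcm4, Pcna, Tyms, Rrm1 and E2f1. Of the 6 fibro-adipogenic markers, 3 were also called higher in TF and none lower, and the part of their cells in these differences was not tested.

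The difference between TE and SE depended on which SE library stood for the group. No mitotic gene was called between TE and SE and 2 S-phase genes were, E2f2 higher and E2f8 lower, beside 3.15% of all tested genes called higher and 4.07% lower. By edgeR's quasi-likelihood test, 3 mitotic genes had an unadjusted p below 0.05, beside 3484 of all 17582 tested genes. DESeq2 called 0 mitotic genes. Both SE libraries lay above both TE libraries for 5 mitotic and 7 S-phase genes, beside 26.1% of all tested genes, and both TE libraries above both SE libraries for 2 S-phase genes and no mitotic gene, beside 23.9%. All 22 mitotic genes were lower in the TE mean, by -1.11 to -0.04 on the log2 scale, with a median of -0.57. Without SE replicate 1 the difference was positive for 14 of the 22 mitotic genes, with a median of 0.08, and for 17 of the 26 S-phase genes, with a median of 0.33. Without SE replicate 2, which leaves a single SE library, the medians were -1.04 and -0.86.

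SE replicate 1 exceeded replicate 2 in nearly all of the genes. It was higher for 24 of 26 S-phase genes, Prim1 and E2f2 excepted, and for all 22 mitotic genes, beside 44.3% of all tested genes. The ratio passed 1.5 for 18 S-phase and 21 mitotic genes, beside 18.2% of all tested genes. The median ratio was 1.77 for S-phase and 2.10 for mitotic genes, with ranges from 0.59 to 4.04 and from 1.34 to 2.90. The mean of TE lay below SE replicate 1 for 22 mitotic and 21 S-phase genes and above SE replicate 2 for 14 and 16 of them. Both TE libraries lay between the 2 SE libraries for 11 mitotic and 9 S-phase genes. For these positions of TE the share of all tested genes was not computed, so the counts cannot be set against it.

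The list of 10 muscle differentiation genes went the other way. All 10 were lower in SE replicate 1, with a median ratio of 0.38. The ratio was above 1 for 34 of 37 other replication genes and 46 of 47 other mitosis genes. Whether the makeup of the 2 cultures set the level of the cell division genes was not tested.

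**Figure D3:**
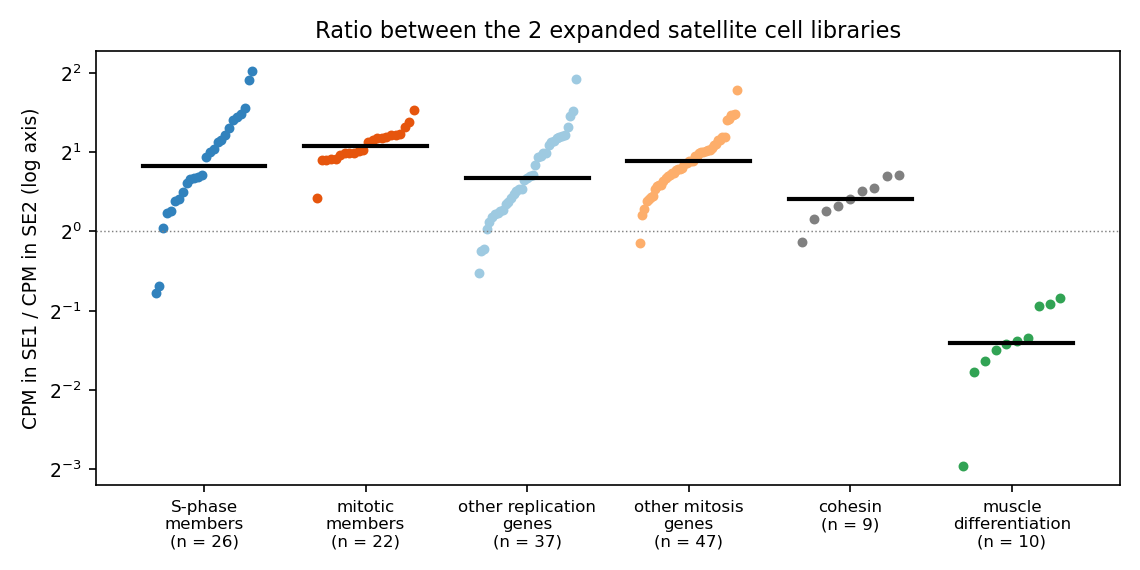
Ratio of the CPM in SE replicate 1 to that in SE replicate 2 (log axis), 1 point per gene, for 6 gene lists with the list median as a bar. All 22 mitotic genes lie above 1, with a median of 2.10, and all 10 muscle differentiation genes lie below 1, with a median of 0.38.

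The replicates of the other groups leaned to a side in fewer of the genes. SF replicate 1 was above SF replicate 2 for 18 of 22 mitotic genes, with a median ratio of 1.86, and for 14 of 26 S-phase genes, with a median ratio of 1.02, beside 51.5% of all tested genes, and its ratio passed 1.5 for 14 and 9 of them, beside 32.3%. TF replicate 1 was above TF replicate 2 for 13 mitotic and 12 S-phase genes, beside 50.8% of all tested genes, and passed 1.5 for 3 and 1 of them, beside 23.5%. In TE the corresponding counts were 15 and 9, beside 46.3%, and the ratio passed 1.5 for 2 S-phase genes and no mitotic gene, beside 15.4%.

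The change with expansion differed between the origins. The difference of the 2 log2 changes, TE against TF minus SE against SF, was called lower for 10 S-phase and 20 mitotic genes and higher for none, beside 9.62% of all tested genes called lower and 4.7% higher. Its median was -1.94 for S-phase and -3.89 for mitotic genes, beside -0.18 over all tested genes. Mki67 differed by -5.05 (s.e. 0.52, adjusted p = 0.000481), E2f8 by -3.90 (s.e. 0.53, adjusted p = 0.0017) and Mcm6 by -3.23 (s.e. 0.55, adjusted p = 0.00497). The 2 mitotic genes not called were Aurka, called higher in both origins, and Birc5, called in neither. E2f2 and Rrm1, called higher with expansion in both origins, were not called for the difference.

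**Figure D4:**
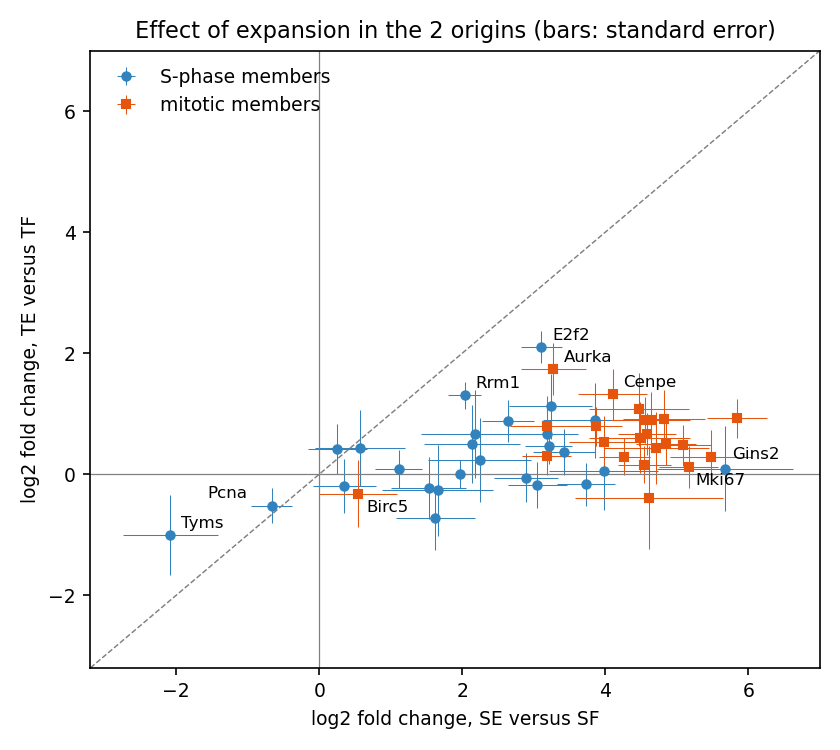
Log2 fold change with expansion in satellite cells (SE against SF, horizontal) and in teratoma-derived cells (TE against TF, vertical) for 26 S-phase and 22 mitotic genes, with standard errors as bars and the line of equal change dashed. The mitotic genes other than Birc5 lie between 3.18 and 5.84 on the horizontal axis and between -0.39 and 1.74 on the vertical one, and Tyms and Pcna lie below 0 on both axes.

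Further genes of the same processes, taken from fixed lists, gave the wider setting. From SF to SE, 24 of 37 other replication genes and 38 of 47 other mitosis genes rose and none fell (64.9% and 80.9%, beside 20.9% of all tested genes called higher), with median log2 fold changes of 1.62 and 3.73. From SF to TF the counts higher were 18 and 33 (48.6% and 70.2%, beside 15.1%), with 1 mitosis gene lower. In a fit of only these 2 groups the 18 replication genes fell to 7, and the share of all tested genes was not computed for that fit. From TF to TE the counts were 3 and 4 (8.11% and 8.51%, below the 9.86% of all tested genes). Between TE and SE no gene of either list was called by edgeR's quasi-likelihood test. By that test 2 and 4 had an unadjusted p below 0.05, beside 3484 of all 17582 tested genes. DESeq2 called 1 mitosis gene. The 2 called genes with the highest mean level in each list are described. Of the mitosis genes, Smc4, the condensin ATPase, was at 40.3 and 51.7 CPM in SF, 102 and 118 CPM in TF, 196 and 214 CPM in TE, and 262 and 161 CPM in SE (log2 fold change from SF to SE 2.20, adjusted p = 0.000158). Ncapd2, another condensin subunit, was at 8.87 and 11.2 CPM in SF, 95.9 and 106 CPM in TF, 122 and 123 CPM in TE, and 173 and 93.4 CPM in SE (3.73, adjusted p = 2.12e-05). All other libraries lay above SF for both. Of the replication genes, Uhrf1, which carries DNA methylation through replication, was at 4.72 and 0.20 CPM in SF, 72.7 and 54.3 CPM in TF, 84.1 and 99.3 CPM in TE, and 113 and 51.9 CPM in SE (5.09, adjusted p = 0.00112). Rfc1, the large subunit of the clamp loader, was at 25.1 and 20.1 CPM in SF, 69.6 and 64.6 CPM in TF, 76.4 and 80.3 CPM in TE, and 60.9 and 52.3 CPM in SE (1.33, adjusted p = 0.000788). SF was lowest for these as well, by far less for Rfc1 than for Uhrf1.

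Lists of regulators had smaller medians. Of 14 genes of the E2F, DREAM and pocket protein families, 9 rose and 1 fell from SF to SE (64.3% and 7.14%, beside 20.9% higher and 19.8% lower over all tested genes), with a median log2 fold change of 1.06. Rb1, the retinoblastoma protein, was at 36.7 and 34.1 CPM in TF, 138 and 125 CPM in TE, 25.3 and 29.5 CPM in SF, and 59.6 and 118 CPM in SE, and was higher with expansion in both origins (adjusted p = 0.00146 for TE against TF and 0.00163 for SE against SF). In SE it was higher in replicate 2, unlike the mitotic genes. E2f4, a repressor E2F, rose from 39.0 and 42.7 CPM in SF to 68.3 and 85.9 CPM in SE (adjusted p = 0.0204). Of 13 subunits and activators of the anaphase-promoting complex, 9 rose and 1 fell from SF to SE (69.2% and 7.69%), with a median of 1.02. Its subunit genes Anapc1 and Cdc27 rose by 1.29 (adjusted p = 0.00316) and 1.02 (adjusted p = 0.00239). Of 9 cohesin genes, 2 rose and 1 fell (22.2% and 11.1%, near or below the shares over all genes), with a median of -0.16, and the number called was 5 with median-ratio size factors. Cohesin also acts outside mitosis. Its kleisin subunit Rad21 was lower in SF (137 and 153 CPM) than in SE (353 and 317 CPM, adjusted p = 0.000863), whereas its loader Nipbl was higher in SF (359 and 426 CPM) than in SE (235 and 177 CPM, adjusted p = 0.00597).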

How the data were processed

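Total RNA of 8 libraries, 2 in each of the groups TF, TE, SF and SE, had been sequenced after preparation with a stranded kit for small inputs. The authors deposited 1 table of estimated counts per gene symbol, and the submitters' processing notes name CASAVA, kallisto 0.44.0 and GRCm38 (mm10). The annotation, the summing of transcripts to genes and the strand setting are not given in the sources used here. The deposited estimated counts carry no scaling between libraries that their totals would show, and they were rounded to whole numbers here before testing. Totals were 11930881 to 21146554, of which the ribosomal transcript Rn45s took 7.99 to 21.3%. A count of 0 allows up to 3 counts, which is 0.141 to 0.252 CPM here, and counting error alone is covered by this floor.

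Genes were filtered with filterByExpr (17582 of 24980 kept), scaled by TMM and fitted over the 4 groups with edgeR 4.0.16 in R 4.3.3 (quasi-likelihood test, Benjamini-Hochberg adjustment over all tested genes). A call needed an adjusted p below 0.05 and a fold above 1.25, the thresholds of the study. The test was first tried on simulated data. The 5 comparisons were TE with TF, SE with SF, TE with SE, TF with SF, and the difference of the 2 expansion effects. Comparisons that share a group share its libraries and are not independent. Alternatives were median-ratio size factors, no filter beyond 1 count in total, DESeq2 1.42.0, a fit of only the groups compared, a replicate block, glmTreat against 1.25-fold, and each library left out in turn.

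The genes and all gene lists were chosen with earlier results of these data known, so no list is independent evidence. All 48 genes may be named, and of each other list (replication, mitosis, E2F and DREAM, anaphase-promoting complex, cohesin) the 2 called genes with the highest mean level per comparison. Gene positions came from GENCODE on GRCm38 and promoters from RefSeq on GRCm38.p6. Within a group the counts of the 2 libraries differed by 11.7 to 87.2 times the sampling noise (chi-square per degree of freedom), more than copies of a single library would. Beside the markers given in the report, summed pericyte and smooth muscle markers were 1254 to 1782 CPM in fresh and 273 to 284 CPM in expanded libraries, Schwann markers 4.54 to 94.3 CPM, pluripotent markers at most 29.3 CPM, and myogenic progenitor markers 1303 to 3335 CPM.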

Additional observations from a re-analysis of the deposited data

Results flagged for a closer look

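For 30 of the 48 genes the effect of expansion differed between the 2 origins by edgeR's quasi-likelihood test of the difference itself, TE against TF minus SE against SF, with the adjusted p below 0.05. All 30 differences were negative, which means a smaller rise, or a fall, in teratoma-derived cells. On the log2 scale the 20 mitotic genes had differences of Kif20a -5.19, Mki67 -5.05, Aurkb -5.00, Kif23 -4.92, Top2a -4.61, Ccna2 -4.39 and Cenpf -4.35, then Nusap1 -4.28, Kif11 -3.97, Tpx2 -3.91, Ccnb1 -3.90, Cenpa -3.87, Bub1 -3.73 and Cdk1 -3.66, and last Cdc20 -3.46, Plk1 -3.40, Ccnb2 -3.08, Bub1b -2.89, Cenpe -2.79 and Ube2c -2.39. The 10 S-phase genes had differences of Gins2 -5.58, Rfc3 -3.93, E2f8 -3.90, Mcm6 -3.23, Mcm2 -3.05, Mcm3 -2.95, Rrm2 -2.74, Cdt1 -2.51, Mcm7 -1.96 and Pole -1.77. Of the 30 calls, 24 held under all 13 alternatives run. The call for Pole was lost under 9 of them, among them median-ratio size factors (adjusted p = 0.0614), glmTreat (0.054) and 7 single libraries left out. The call for Ube2c was lost under 7, among them median-ratio size factors (0.0672), glmTreat (0.0579) and 5 single libraries left out. Those for Aurkb, Cdt1, Plk1 and Rfc3 were each lost on leaving out either of 2 libraries. The fresh groups entered this difference at unlike levels, since SF was lowest for 21 of 22 mitotic and 23 of 26 S-phase genes and TF was not. Aurkb and Gins2 had 0 counts in SF replicate 2, and Rfc3 had 2 counts in SF replicate 1, so the size of their differences rests on few reads. With 2 libraries in each group, no group was large enough to be searched for single outlying libraries.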

How the results depend on the processing

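The 41 rises and the fall from SF to SE kept their direction under every alternative run, and 21 mitotic genes were called in SE against SF under each of them. Counts of called genes in the 2 classes moved by over 1.5 times only in the 2 comparisons with few calls. In TE against TF, S-phase calls went from 2 to 5 without the filter and to 7 in a fit of only the groups compared. Mitotic calls went from 2 to 1 with median-ratio size factors, 7 without the filter, 11 in a fit of only the groups compared and 1 with glmTreat. In TE against SE, S-phase calls went from 2 to 6 without the filter and 4 with DESeq2, and mitotic calls from 0 to 4 without the filter. The ratio of the mitotic median relative level in TE to that in TF was 1.54, 1.48 with median-ratio size factors and 1.59 on the log2 scale. The share of all tested genes called was not computed under any of the alternatives, and the cause of these shifts was not tested.

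With each library left out in turn, S-phase and mitotic calls ranged from 2 to 3 and from 0 to 6 in TE against TF, from 16 to 21 and at 21 in SE against SF, and from 1 to 7 and from 0 to 6 in TE against SE. They ranged from 11 to 15 and from 18 to 20 in TF against SF, and from 7 to 15 and from 17 to 21 for the difference between origins. The 6 mitotic calls in TE against SE arose without SE replicate 2. Of 42 single-gene calls in SE against SF, 35 held under all 14 alternatives, and Prim1 (10 losses), Chek1 and Mcm5 (5 each), Ccne2 (4), and Cdc6, Mcm4 and Tyms (3 each) did not. In TF against SF 25 of 33 held, and Cdc45 (9 losses), Ube2c (5) and Plk1 (3) were lost most often. The uncalled change from SF to SE of E2f1 turned to -0.23 without SF replicate 2 (range -0.23 to 1.03), and that of Pola1 to -0.62 without SE replicate 1 (range -0.62 to 0.94).

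The correlation of replicate differences between groups ran from -0.0228 to 0.0261. It cannot decide whether libraries of the same number were paired, since differences between fresh samples need not persist in culture. The labels do not say whether they were. A fit with the replicate number as a block called 2 S-phase and 3 mitotic genes in TE against TF, 20 and 21 in SE against SF, 2 and 0 in TE against SE, 13 and 20 in TF against SF, and 10 and 20 for the difference. Of the other lists, 9 cohesin genes gave 3 calls in SE against SF and 5 with median-ratio size factors, without the filter or with DESeq2. The median log2 fold change over all tested genes went from -0.23 to -0.43 in SE against SF, and from 0.08 to -0.08 in TF against SF, under median-ratio scaling. Counts limit some SF values, since several genes had fewer than 10 counts there at their low level.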
